A study of Mus musculus with 60 samples.

Results

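Pde6b, AI662270, Sgcb, Gnpda2 and Tcim are 5 of the 18194 genes named on the arrays, and 11 probe sets carry their names. They were chosen by measured values of this series: Pde6b was high on some arrays of a treatment group and low on other arrays of the same group at the literature doses, and the other members were picked with results of those arrays in view. Their values at the literature doses are therefore a description, and the IC20 arrays, which that rule did not name, carry the tests. Earlier results of these data were known when the members were chosen, so the IC20 tests may not be wholly free of selection.

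The cells were Balb/c 3T3, an established line of embryonic mouse fibroblasts that serves in cell transformation tests for carcinogens. RNA of 60 samples, 3 in each of 20 groups, was hybridised to single-colour Affymetrix arrays. The labels speak of triplicates with several dishes per treatment but do not say whether the 3 are separate cultures, so p-values measure the spread between arrays, which may be technical. The carcinogens were 2-Acetylaminoflourene (AAF) and benzo(a)pyrene (BaP), then 2, 4-diaminotoluene (DAT) and 3-methycholanthrene (MCA), as the labels spell them. In the first set of 30 arrays, at doses from the literature, cells had AAF at 25 µM, BaP at 0.5 µM, DAT at 50 µM, MCA at 2 µM or the solvent DMSO alone at 0.75%, each for 24 h and for 120 h. In the second set of 30 arrays, at doses the labels call IC20, DMSO controls were again taken at both times. AAF was at 10 µM throughout there, while BaP was at 1.5 µM for 24 h but 0.1 µM for 120 h, DAT at 700 µM but 0.2 µM, and MCA at 20 µM but 0.1 µM. All groups shared the line, its supplier and the medium.

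The members have no single pathway in common. Pde6b is the beta subunit of the cyclic GMP phosphodiesterase of rod photoreceptors, which closes the cation channels of the rod outer segment after light, and it is known for its role in retina rather than in fibroblasts. Sgcb is beta-sarcoglycan, a membrane partner of the dystrophin complex that muscle and some fibroblasts carry. Gnpda2 is a glucosamine-6-phosphate deaminase, which returns amino sugars to glycolysis. Tcim is a small regulator of transcription linked to Wnt signalling. AI662270 is annotated as a long non-coding RNA gene, with no role given here.

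RefSeq places Pde6b, Sgcb and Gnpda2 on chromosome 5, AI662270 on chromosome 11 and Tcim on chromosome 8. In the RefSeq order of the 812 measured chromosome 5 genes that passed the filter on dim values, Gnpda2 was number 251, Sgcb 266 and Pde6b 397. The windows from 250 bases before to 50 bases after the gene start (RefSeq, GRCm38.p6) are shown because Gnpda2 and Sgcb were the genes most like Pde6b over the literature-dose arrays. They lie at chr5:108388123-108388422 on the plus strand for Pde6b, chr5:73647688-73647987 on the minus strand for Sgcb and chr5:69592255-69592554 on the minus strand for Gnpda2, 5′ to 3′, with matches to 6 searched motifs in capitals.
Pde6b: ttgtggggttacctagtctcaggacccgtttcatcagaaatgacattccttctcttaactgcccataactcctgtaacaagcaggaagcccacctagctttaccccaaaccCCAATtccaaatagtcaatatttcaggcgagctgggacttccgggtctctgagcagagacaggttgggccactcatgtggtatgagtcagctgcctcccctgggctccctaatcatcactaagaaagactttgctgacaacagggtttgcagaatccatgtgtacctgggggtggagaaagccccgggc
Sgcb: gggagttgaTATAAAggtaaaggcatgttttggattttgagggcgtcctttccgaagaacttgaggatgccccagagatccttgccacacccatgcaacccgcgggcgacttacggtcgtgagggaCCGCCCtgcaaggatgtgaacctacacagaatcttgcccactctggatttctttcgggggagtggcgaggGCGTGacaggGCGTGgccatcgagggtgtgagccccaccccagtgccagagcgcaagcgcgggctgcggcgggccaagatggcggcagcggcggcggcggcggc
Gnpda2: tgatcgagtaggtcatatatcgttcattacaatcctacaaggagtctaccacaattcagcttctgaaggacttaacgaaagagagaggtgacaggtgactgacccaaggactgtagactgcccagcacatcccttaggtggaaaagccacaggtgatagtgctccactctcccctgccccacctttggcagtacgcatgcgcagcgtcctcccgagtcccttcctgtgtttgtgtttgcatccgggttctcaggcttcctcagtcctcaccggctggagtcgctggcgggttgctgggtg
Both strands were searched. The core of the aryl hydrocarbon receptor site was spelled GCGTG, and the GC-rich box bound by Sp1 was spelled GGGCGG. For the core promoter box bound by TBP the letters were TATAAA, and for the box bound by NF-Y they were CCAAT. The core of the site of the photoreceptor factor CRX was taken as TAATCC. An E-box was taken as CACGTG, and no matches to different motifs overlapped. The Pde6b window held CCAAT at -139, a motif present in 37.4% of 32851 windows of this length. In the Sgcb window GCGTG stood at -54 and -44 (32.4% of windows hold it), GGGCGG at -124 (35.7%) and TATAAA at -241 (13.6%). No match to the 6 motifs was in the Gnpda2 window. TAATCC, held by 7.06% of windows, and CACGTG, held by 7.15%, were in none of the 3 windows. GC content was 51.3% for Pde6b, 62.7% for Sgcb and 54.3% for Gnpda2, beside a median of 52.7%.

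Signal differed between members. Intensities are the deposited linear values, and levels of different probe sets are not compared. Sgcb, Gnpda2 and Tcim were above their array's median on all 60 arrays, AI662270 on 40 and Pde6b on 23. All 5 members were among the 12636 genes that passed the filter, which asks for a value above the array median on at least 3 of the 60 arrays. Pde6b passed it through the arrays on which it was high.

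At 24 h and literature doses, Pde6b took either a very low or a middling value, with nothing between. In the DMSO controls it was 47.1, 29.2 and 0.695 in replicates 1, 2 and 3. With BaP it was 39.8, 32.4 and 45.6, and with MCA 4.55, 2.11 and 45.6. The first 2 DMSO arrays, all 3 BaP arrays and the third MCA array were high, so that the DMSO and MCA groups each held both levels. With AAF the values were 2.89, 0.394 and 2.36, and with DAT 4.54, 4.41 and 0.0807. Ranked by value, 9 arrays lay at or below 4.55 and 6 arrays between 29.2 and 47.1, a gap of 1.14 on the log2(intensity + 16) scale against 0.21 for the next widest. Even the 6 upper arrays placed Pde6b only near the middle of their own array, at percentiles 41.9 to 51.4, while the 9 lower arrays placed it at percentiles 1.2 to 9.9.

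At 120 h the separation was wider. In the DMSO controls Pde6b was 5.96, 229 and 186, so replicate 1 stood with the low arrays. With BaP it was 101, 105 and 88. AAF gave 1.28, 6.68 and 1.03, DAT 4.36, 3.28 and 3.92, and MCA 0.338, 0.00672 and 5.03. Thus 10 arrays lay at or below 6.68 and 5 arrays between 88 and 229, a gap of 2.20 (log2) with 0.74 as the next. The upper arrays placed Pde6b at percentiles 62.1 to 77.1 of their array, and the lower ones at 0.8 to 13.9.

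Over both times, 3 of the 10 literature-dose groups spanned the gap and 7 lay on one side. The array out of step did not carry one replicate number: it was number 3 in the 24 h DMSO controls, number 1 in the 120 h DMSO controls, and number 3 in MCA at 24 h, where it was the high one. With group means removed, the standard deviation of Pde6b was 0.77 (log2, 30 arrays), the largest of 12636 genes, whose median was 0.114. That rank belongs to what chose the gene and is given as a description.

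**Figure D1:**
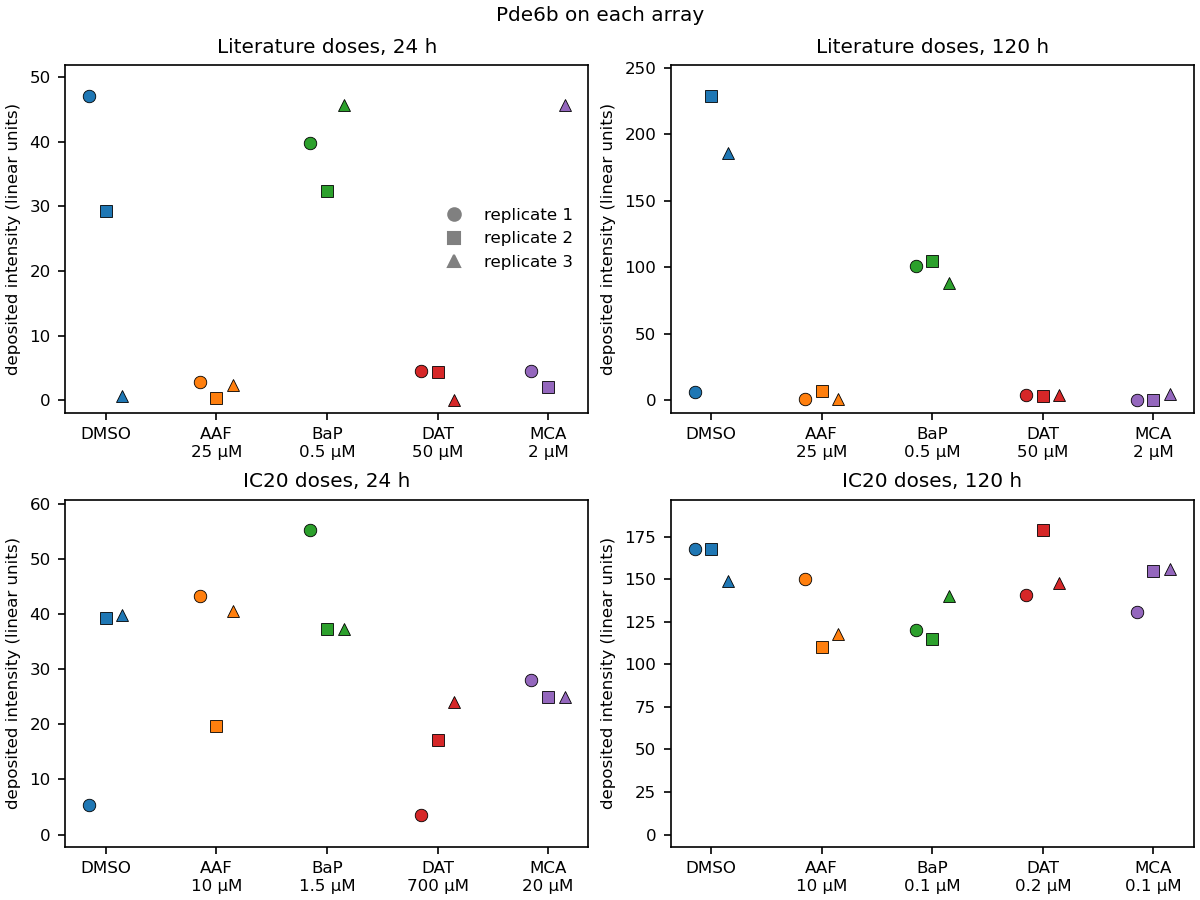
Deposited Pde6b intensity (linear units, y) on each of the 60 arrays, by treatment (x), with a panel for each set and time and a marker shape for each replicate number. At the literature doses the DMSO controls hold values from 0.695 to 47.1 at 24 h and from 5.96 to 229 at 120 h, whereas the 120 h IC20 arrays all lie between 110 and 179.

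Cyp1b1, a cytochrome P450 gene induced through the aryl hydrocarbon receptor by polycyclic hydrocarbons, was measured on the same arrays. It was 4485, 4425 and 4456 on the 3 MCA arrays at 24 h. It was 1247, 1125 and 1503 on the 24 h DMSO arrays and 1686, 1404 and 1414 on the 120 h DMSO arrays. All 3 MCA arrays lay above all 6 DMSO arrays, and within each DMSO group the array lowest for Pde6b was the highest for Cyp1b1. Cyp1b1 is named as one of the genes least like Pde6b over the literature-dose arrays (r = -0.80 with group means removed). Its opposite order in the DMSO groups is part of that choice and is a description. Log2 ratios of the 3′ to the 5′ probe sets of actin ran from 0.23 to 0.34 over these 9 arrays, and those of Gapdh from -0.34 to -0.16. The low array of each DMSO group (replicate 3 at 24 h, replicate 1 at 120 h) had ratios of 0.26 and 0.28 for actin and -0.25 and -0.16 for Gapdh. No difference of RNA quality was tested.

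AI662270 had the same array at one end of each of the 3 split groups as Pde6b, though not the same full order at 24 h. It measured 142, 154 and 107 in the 24 h DMSO controls, 65.3, 146 and 145 in the 120 h DMSO controls, and 79.2, 98.4 and 156 with MCA at 24 h. The array lowest for Pde6b among the DMSO controls was lowest for AI662270 at both times, and the MCA array high for Pde6b was highest. Across groups AI662270 was 195 ± 15.4 (SD, n = 3) with BaP and 54.7 ± 4.01 (SD, n = 3) with AAF at 24 h. At 120 h it was 157 ± 5.1 with BaP, 62.4 ± 6.51 with AAF, 26.6 ± 8.98 with DAT and 21 ± 7.64 with MCA (SD, n = 3 each). Its second probe set gave the same order of arrays in the 120 h controls for the lowest array, with 43.7, 97.3 and 91.1.

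Sgcb showed the split with a smaller ratio over a higher floor. Values were 325, 224 and 192 in the 24 h DMSO controls, 186, 352 and 361 in the 120 h DMSO controls, and 166, 156 and 311 with MCA at 24 h. Again DMSO replicate 3 at 24 h and replicate 1 at 120 h were lowest, and MCA replicate 3 was highest. A second bright probe set of Sgcb read 171, 135 and 125, then 189, 291 and 311, then 97.8, 95.2 and 170 in the same 3 groups, with the same array lowest in each DMSO group. Its remaining probe set was dim, at most 14 at the literature doses.

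For Gnpda2 the 24 h DMSO values were 241, 203 and 191, the 120 h DMSO values 140, 262 and 283, and the MCA values at 24 h 164, 147 and 203. The order matched that of Pde6b in which array was lowest among controls and highest with MCA. The second bright probe set read 128, 117 and 96.9, then 69.3, 142 and 147, then 81.9, 79.6 and 122, so both bright probe sets placed the same arrays at the ends. The 120 h DMSO group alone had a standard deviation of 0.50 (log2, n = 3), against 0.05 to 0.18 in the other literature-dose groups.

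Tcim followed Pde6b inside the split groups but not between groups. It was 287, 258 and 182 in the 24 h DMSO controls, 143, 197 and 223 in the 120 h DMSO controls, and 235, 274 and 446 with MCA at 24 h. Between groups its highest values came with MCA at 120 h, 639, 583 and 647, where Pde6b was near 0. BaP gave 590, 519 and 520 at 24 h. Of all 11 probe sets of the 5 members, 11 were lowest on DMSO replicate 3 at 24 h, 10 were lowest on DMSO replicate 1 at 120 h and 11 were highest on MCA replicate 3 at 24 h. These counts use deposited intensity, and by that measure such agreement was not particular to the split groups. In groups that did not split, 10 of the 11 were lowest on BaP replicate 2 at 24 h and 10 on DAT replicate 2 at 120 h. After normalization the 5 members had mixed signs there. Log2 differences from the group mean ran from -0.21 to 0.02 on that BaP array and from -0.40 to 0.04 on that DAT array. They kept one sign in the split groups: -1.12 to -0.18 on DMSO replicate 3 at 24 h and -2.23 to -0.31 on DMSO replicate 1 at 120 h. On MCA replicate 3 at 24 h they were 0.20 to 1.12.

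**Figure D2:**
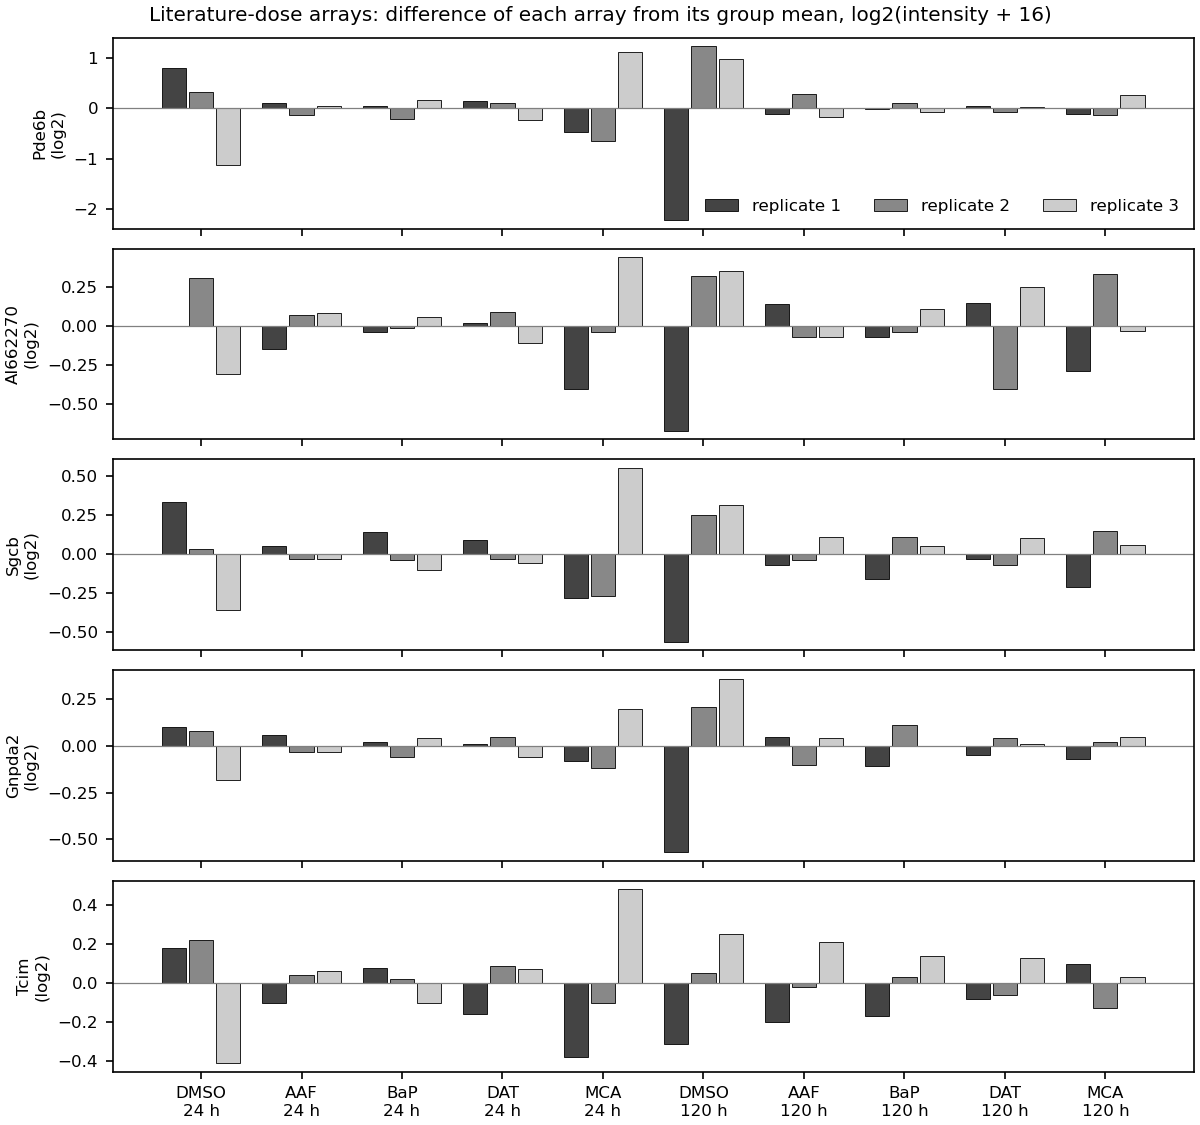
Difference of each literature-dose array from the mean of its group (y, log2(intensity + 16)) for the 5 members, 1 panel a gene, with 3 bars a group shaded by replicate number. The bars of the 24 h and 120 h DMSO controls and of MCA at 24 h are the tall ones in the Pde6b panel, and the other members point the same way on DMSO replicate 3 at 24 h, DMSO replicate 1 at 120 h and MCA replicate 3.

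Over all 15 arrays of a time, the 6 highest arrays of Pde6b at 24 h and its 5 highest at 120 h were also the highest for both probe sets of AI662270, for 1 of 3 probe sets of Sgcb and for both bright probe sets of Gnpda2. The second bright probe set of Sgcb shared 5 of 6 and 4 of 5. Both probe sets of Tcim shared 5 of 6 at 24 h and 0 of 5 at 120 h. These member counts use deposited intensity. By normalized values, 55 of the 12635 other tested genes had exactly these highest arrays at 24 h and 190 at 120 h. At both times 21 did, which is 0.166%. All BaP arrays are among the high arrays, so this count is not apart from treatment. AI662270, Sgcb and Gnpda2 are 3 of the 21, and 18 are no members.

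Of the 21 genes, 10 lie on chromosome 5 (47.6%), and among the 18 that are no members 8 do, while 6.43% of tested genes placed by RefSeq lie there. The chromosome 5 genes include Cox7b2, Rell1, Gpat3, an acyltransferase of glycerolipid synthesis, and Coq2, an enzyme of coenzyme Q synthesis. Cox7b2, the next tested gene after Gnpda2 in RefSeq order, was 111, 172 and 162 on the 120 h DMSO arrays. Genes elsewhere include Dag1 on chromosome 9, dystroglycan, which binds the sarcoglycans; it was 2598, 2602 and 2128 on the 24 h DMSO arrays and 3259, 3619 and 3731 on the 120 h DMSO arrays. Another 7 genes had these arrays as their lowest at both times, 1 of them on chromosome 5. Without normalization 12 genes had these highest arrays, 6 of them on chromosome 5, and 10 of the 12 were among the 21. With a group left out, fewer arrays had to match and more genes did, the 21 among them. The count was 53 without the 24 h DMSO controls and 32 without the 120 h DMSO controls. It was 30 without MCA at 24 h and 35 without the BaP groups.

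Likeness to Pde6b apart from treatment was measured as Pearson r over the 30 literature-dose arrays after the group means were removed. These r are descriptions, since the same arrays chose the members and 9 of the 30 belong to the groups that span the gap. Gnpda2 had r = 0.91 and Sgcb r = 0.88, ranks 1 and 2 of 12635 genes. AI662270 had r = 0.75, rank 15, and Tcim r = 0.68, rank 43, where the 99th percentile of all genes was 0.61 and the median -0.01. Spearman's rho was lower, at 0.74 for Gnpda2, 0.65 for Sgcb, 0.54 for AI662270 and 0.46 for Tcim. The sign was that of Pde6b on 22, 22, 21 and 19 of the 30 arrays. With the 120 h DMSO controls left out, r was 0.84 for Sgcb (rank 4), 0.78 for Gnpda2 (rank 41), 0.70 for Tcim (rank 104) and 0.54 for AI662270 (rank 453). The order among the members thus rested in part on that group.

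**Figure D3:**
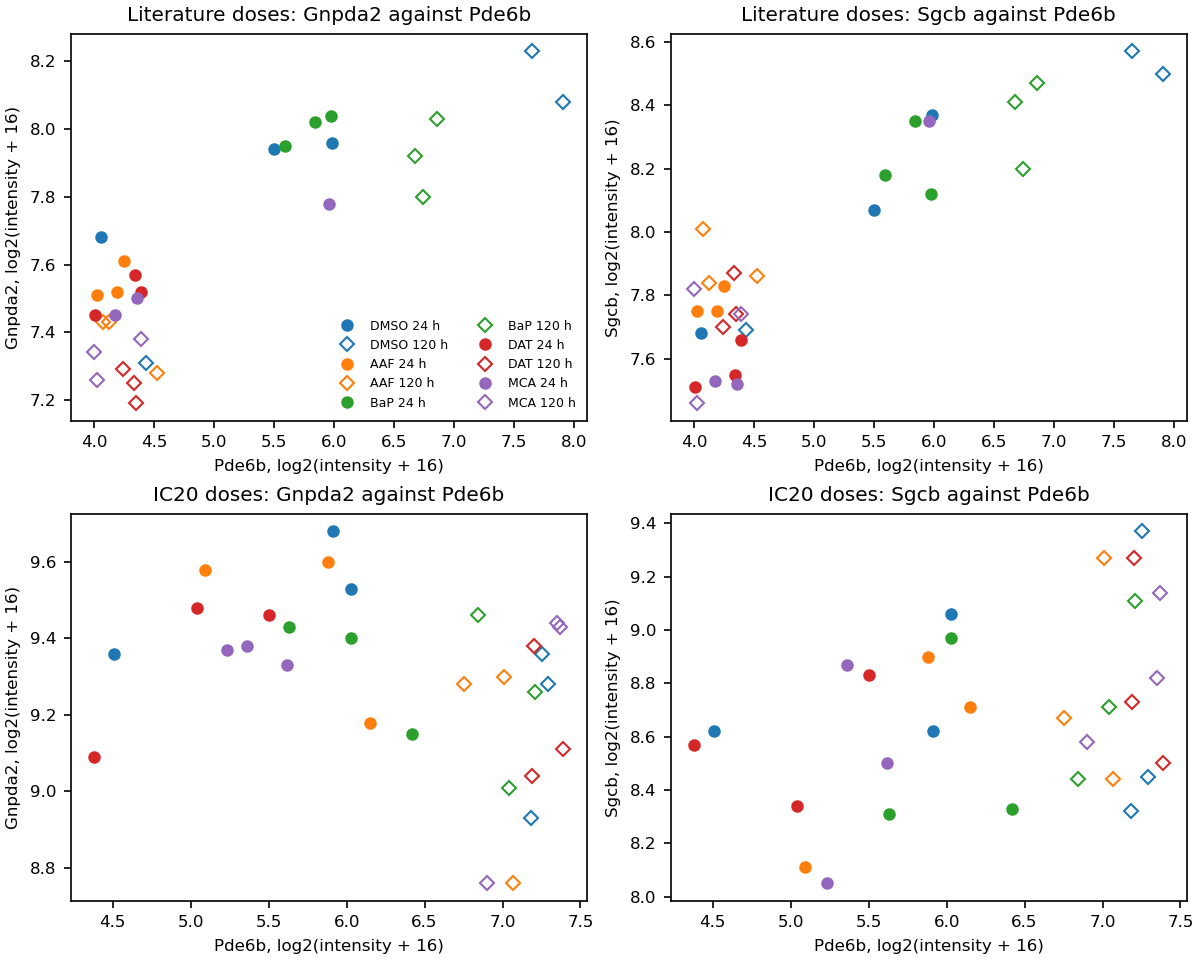
Gnpda2 (left) and Sgcb (right) against Pde6b, both as normalized log2(intensity + 16), on the 30 literature-dose arrays (top) and the 30 IC20 arrays (bottom), coloured by treatment, filled at 24 h and open at 120 h. The literature-dose arrays form a low and a high cloud in which DMSO and MCA arrays appear on both sides. In the IC20 arrays Pde6b lies lower at 24 h than at 120 h.

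The 10 genes most like Pde6b were Gnpda2, Sgcb, Arhgap24, Mrpl1, Rdh10, Gramd1b, Cxcl11, Gpat3, Tbc1d19 and Fam135a, with r from 0.91 down to 0.76. On chromosome 5 lay 7 of the 10, and 5 of the 8 that are no members: Arhgap24, Mrpl1, a mitochondrial ribosomal protein, Cxcl11, an interferon-induced chemokine, Gpat3 and Tbc1d19. Arhgap24 was 68.3, 129 and 123 on the 120 h DMSO arrays and 63.7, 62.9 and 123 with MCA at 24 h, the order that Pde6b had. The count of 7 was not stable: it was 1 with the 120 h DMSO controls left out, 3 with the replicate number removed, and 4 without normalization or without the 24 h DMSO controls. Further down the ranking both ends held chromosome 5 genes: 12.6% of the 500 most like and 13.2% of the 500 least like lay there, beside 6.43% of all. The 5 genes least like Pde6b were Clu, Cyp1b1, Dact1, Sparcl1 and Fmod, with r from -0.80 to -0.79.

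Along chromosome 5 the likeness was uneven. When each chromosome was divided into 10 runs of tested genes, 200 runs in all, runs 3, 4 and 5 of chromosome 5 had median r of 0.18, 0.18 and 0.16 with the members left out. Gnpda2 and Sgcb lie in run 4 and Pde6b in run 5. These runs ranked 6, 5 and 9 of the 200, and 4 runs of other chromosomes had higher medians, from 0.19 to 0.24. In runs 6 to 10 the medians were -0.12, -0.13, -0.24, -0.18 and -0.18. The genes next to Pde6b did not share its pattern: the 3 nearest tested genes on each side had r between -0.23 and 0.28. Beside Gnpda2, Cox7b2 had r = 0.73 with Gnpda2 and 0.68 with Pde6b, and near Sgcb the non-coding RNA gene Dancr had 0.76 with Sgcb and 0.61 with Pde6b. Adam9, the next tested gene after Tcim, had r = 0.66 with Tcim.

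**Figure D4:**
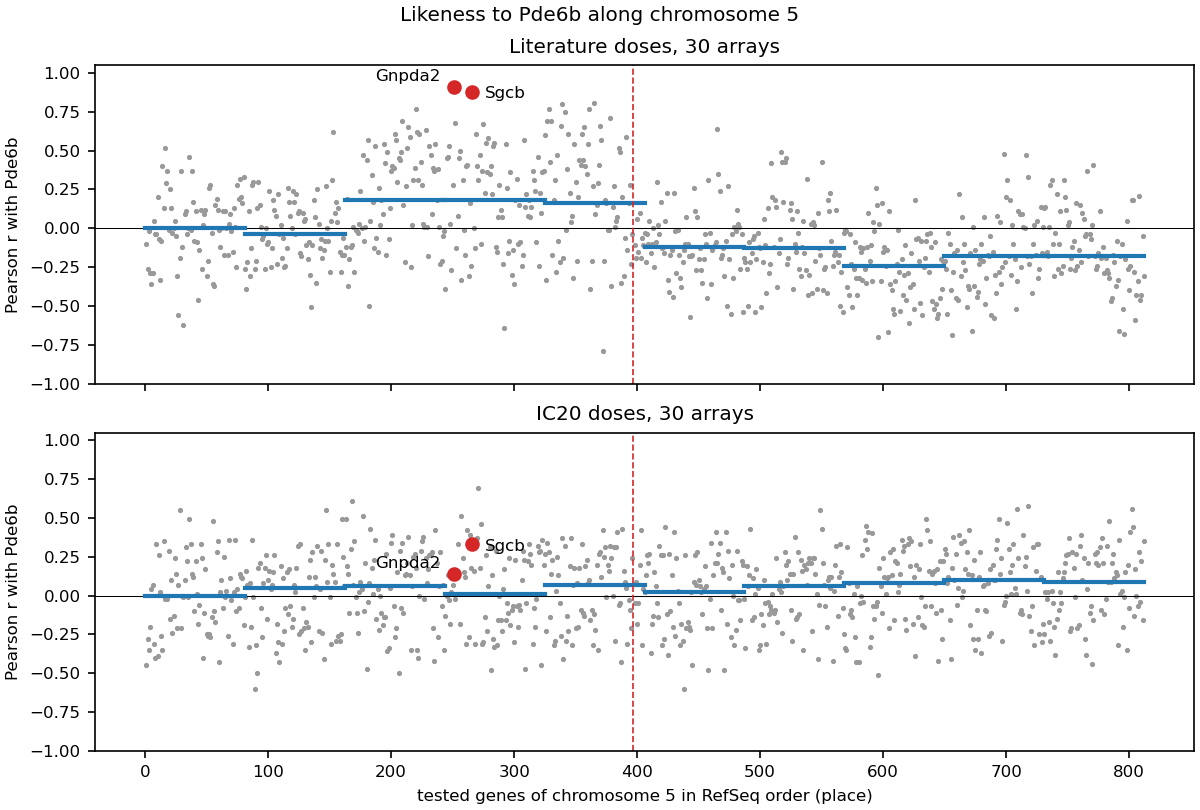
Pearson r with Pde6b (y) of the tested genes of chromosome 5 in RefSeq order (x), in the literature-dose arrays (top) and the IC20 arrays (bottom), with the median of each of 10 runs as a blue line, Gnpda2 and Sgcb as red points and the place of Pde6b as a dashed line. In the top panel the medians are 0.16 to 0.18 in runs 3 to 5 and below 0 after them, and in the bottom panel they stay between -0.00 and 0.10.

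Treatment was set against DMSO with limma's moderated F-test over the 4 treatments, adjusted by the Benjamini-Hochberg method over all tested genes, at adjusted p under 0.05. In the literature-dose arrays these calls come from the arrays that chose the members, so nothing is read from them. At 24 h, where 15.4% of tested genes passed, 3 of 5 members did: AI662270 (limma adjusted p = 6.65e-05), Tcim (6.4e-05) and Gnpda2 (0.0304), while Pde6b (0.141) and Sgcb (0.0987) did not. The Gnpda2 call was lost when any 1 of 5 arrays was left out: AAF replicate 3, any BaP replicate or DAT replicate 3, all at 24 h. Pde6b passed (0.00486) once replicate 1 of the 120 h DMSO controls, which shares the spread estimate, was left out. Sgcb passed on leaving out that array, DMSO replicate 3 at 24 h or MCA replicate 3 at 24 h, down to 0.0121.

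At 120 h, where 53.2% of tested genes passed, all 5 members did. These calls and differences also come from the arrays that chose the members, so they are descriptions and nothing is read from them. Pde6b was lower than in the DMSO controls by a log2 difference of -2.43 ± 0.55 with AAF, -2.36 ± 0.55 with DAT and -2.53 ± 0.55 with MCA (± SE), and differed by 0.09 ± 0.55 with BaP. AI662270 differed by -1.61 ± 0.22 with DAT and -1.78 ± 0.22 with MCA. Gnpda2 and Sgcb were lower with AAF, DAT and MCA, by differences of -0.63 to -0.49 and -0.58 to -0.35. Tcim went the other way, with 1.68 ± 0.17 for MCA and 1.09 ± 0.17 for DAT. The DMSO mean behind each Pde6b difference holds 1 low and 2 high arrays.

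The replicate numbers of the labels did not line up with the split at the literature doses. For the F-test of replicate number across all groups of a time, 20.1% of tested genes passed at 24 h and 26.0% at 120 h, and 0 of 5 members did at either time, which is a description because the spread between replicates chose them.

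Time in culture was compared in the DMSO controls alone. At the literature doses these calls come from the arrays that chose the members, so nothing is read from them. Both DMSO means of Pde6b there mix low and high arrays. At the literature doses 29.3% of tested genes passed as higher at 120 h, and 1 of 5 members, Pde6b, was among them (log2 difference 1.49 ± 0.55 SE, limma adjusted p = 0.0228). That call was lost without DMSO replicate 3 at 24 h, or without DMSO replicate 2 or 3 at 120 h, with limma adjusted p up to 0.21. With replicate number as a block the limma adjusted p was 0.241, but that fit compares the times at the fitted level of replicate number 1 alone. It is not the same difference with the number removed. As lower at 120 h 28.4% of tested genes passed and 0 of 5 members did. Tcim differed by -0.38 ± 0.17 (limma adjusted p = 0.0564), a value that passed on leaving out any of 4 arrays: DMSO replicate 3 at 24 h, DMSO replicate 3 at 120 h, or MCA replicate 1 or 3 at 24 h. In the block fit, again at replicate number 1 alone, the limma adjusted p of Tcim was 0.0443. Without replicate 1 at 120 h, Sgcb (0.0213) and Gnpda2 (0.00936) passed, where they had differed by 0.21 ± 0.19 and 0.01 ± 0.14.

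In the IC20 arrays Pde6b showed no split at 120 h, and at 24 h a gap set 2 arrays apart. At 24 h the DMSO values were 5.42, 39.4 and 39.8, AAF 43.4, 19.8 and 40.6, BaP 55.3, 37.4 and 37.4, DAT 3.55, 17.1 and 24.1, and MCA 28, 24.9 and 24.9. Only DMSO replicate 1 and DAT replicate 1 fell below 17.1. At 120 h all 15 arrays lay between 110 and 179: DMSO 168, 168 and 149, AAF 150, 110 and 118, BaP 120, 115 and 140, DAT 141, 179 and 148, and MCA 131, 155 and 156. Values with AAF, DAT and MCA, which were at most 6.68 in the first set at 120 h, were 110 to 179 here. The doses differ between the sets and the sets were scaled differently, so levels are not compared across them. With group means removed the Pde6b standard deviation was 0.41 (log2), rank 1989 of 12636.

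In the IC20 DMSO controls the log2 difference of Pde6b at 120 h from 24 h was 1.75 ± 0.32 (SE, limma adjusted p = 9.04e-05, 95% interval 1.09 to 2.42). Pde6b was higher on all 3 arrays at 120 h than on all 3 at 24 h. It was 1 of 5 members higher at 120 h, where 17.8% of tested genes passed in that direction. AI662270 fell by 1.01 ± 0.25 (limma adjusted p = 0.00196), from 100, 159 and 87.1 to 65.7, 86.6 and 66.2, 1 of 5 members where 22.4% of tested genes passed as lower; without normalization that p was 0.115. Sgcb differed by -0.05 ± 0.29, Gnpda2 by -0.33 ± 0.18 and Tcim by 0.28 ± 0.21, none past the threshold, though Tcim passed without normalization (0.000852). In the fit with replicate number as a block Gnpda2 was lower (limma adjusted p = 0.00269). That fit compares the times at the fitted level of replicate number 1 alone. It is not the same difference with the number removed.

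Tcim was the member that changed with treatment at the IC20 doses. At 24 h it was 114, 131 and 126 in DMSO, 117, 150 and 181 with AAF, 357, 227 and 262 with BaP, 410, 283 and 355 with DAT and 358, 306 and 319 with MCA. All arrays with BaP, DAT and MCA lay above all DMSO arrays, and the AAF arrays overlapped them. The log2 differences were 1.22 ± 0.21 for DAT, 1.08 ± 0.21 for MCA, 0.84 ± 0.21 for BaP and 0.15 ± 0.21 for AAF (SE). It was 1 of 5 members to pass (limma F-test, adjusted p = 0.000347; 0.000157 to 0.00169 over 30 leave-outs), where 7.72% of tested genes passed; with replicate number as a block 3524 genes passed in place of 975. Pde6b (adjusted p = 0.243), AI662270 (0.379), Sgcb (1) and Gnpda2 (0.984) did not pass.

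At 120 h and IC20 doses 2.55% of tested genes passed and 0 of 5 members did by limma; by unadjusted p under 0.05 Tcim alone was below it (0.00325, adjusted 0.0999). Tcim was 308, 344 and 289 with MCA and 224, 220 and 227 in DMSO, a log2 difference of 0.56 ± 0.21 (95% interval 0.12 to 0.99). It passed without AAF replicate 3 at 120 h (0.0312), in a fit of all 60 arrays (0.011) and with replicate number as a block (0.00672). For Pde6b the largest of the 4 differences was -0.30 ± 0.32 with AAF (95% interval -0.96 to 0.37).

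Sgcb and Gnpda2 moved with the replicate number at the IC20 doses. By the probe set that stands for the gene, Sgcb was highest on replicate 3 in every IC20 group. At 120 h it read 357, 369 and 673 in DMSO, 391, 422 and 637 with AAF and 421, 358 and 558 with BaP. It read 435, 380 and 633 with DAT and 423, 447 and 571 with MCA. The second bright probe set of Sgcb varied less in DMSO at 120 h (SD 0.26 against 0.57, log2) but more with MCA at 120 h (0.42 against 0.28). Whether that probe set moved with the number was not tested. For Gnpda2, replicate 1 was lowest in all 10 groups, with 524, 628 and 665 in DMSO at 120 h. Both passed the F-test of replicate number at 24 h (limma adjusted p = 8.71e-05 and 0.00639) and at 120 h (6.26e-06 and 4.6e-05), 2 of 5 members where 45.2% and 49.5% of tested genes passed. That count of members is near the share of all tested genes. Pde6b (0.352 and 0.906), AI662270 (0.162 and 0.356) and Tcim (0.0835 and 0.144) did not pass, although Tcim did at 24 h (0.0296 at the lowest) on leaving out AAF replicate 1 or DMSO replicate 2, and AI662270 at 24 h without normalization (0.0073).

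Whether the members move together apart from treatment was tested over the 30 IC20 arrays with group means removed, for the 10 pairs, by two-sided permutation within groups. This permutation does not keep the replicate number, which arrays of different groups share in part, so its p-values do not hold for members that move with the number, as Sgcb does. No pair passed by Pearson r after Benjamini-Hochberg adjustment, and at an unadjusted p under 0.05 there was 1, Sgcb with Tcim. That pair had r = 0.56 (permutation p = 0.00677, adjusted 0.0677), rho = 0.66 (p = 0.00105, adjusted 0.0105), the same sign on 24 of 30 arrays, and r = 0.51 without the 2 arrays farthest from the median of Sgcb. The r passed, at up to 0.68, on leaving out any of 5 arrays: AAF replicate 1, BaP replicate 1 or BaP replicate 3 at 24 h, or MCA replicate 2 or 3 at 120 h. With the replicate number removed as well, as a block, r of Sgcb with Tcim was 0.07 and 0 pairs passed.

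Pde6b itself had r = 0.33 with Sgcb (permutation p = 0.0676, adjusted 0.273; rho = 0.34, p = 0.0748, adjusted 0.249; 0.26 without the 2 farthest arrays). With Tcim it had r = 0.32 (permutation p = 0.109, adjusted 0.273; rho = 0.45, p = 0.037, adjusted 0.185; r = 0.33 without the 2 farthest). With Gnpda2 r was 0.14 (permutation p = 0.484, adjusted 0.691; rho = 0.06, p = 0.787, adjusted 0.884; r = 0.13 without the 2 farthest) and with AI662270 0.07 (permutation p = 0.791, adjusted 0.878; rho = 0.06, p = 0.795, adjusted 0.884; r = 0.17 without the 2 farthest). With the replicate number removed, r with Pde6b was 0.15 for Sgcb, 0.24 for Tcim, 0.05 for Gnpda2 and 0.26 for AI662270. By rank of r with Pde6b, Gnpda2 went from 1 in the literature-dose arrays to 4515 of 12635 here, and Sgcb from 2 to 1367. The 3 genes most like Pde6b here were Pex5l (r = 0.78), Miga1 (0.77) and Il10 (0.72), with r of 0.03, -0.18 and 0.12 in the first set.

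Other genes of the members' pathways were taken from lists chosen with earlier results of these data known. In the phototransduction list, 10 of 25 genes on the array passed the filter, and their median r with Pde6b was -0.17 in the literature-dose arrays (all genes -0.01) and 0.14 in the IC20 arrays (all genes 0.04). The cone subunit Pde6c and the rod transducin Gnat1 did not pass, and 17 of 25 genes of the list were above the array median on no literature-dose array at 24 h. In the sarcoglycan and dystrophin list, 9 genes were tested, 2 passed the treatment test at 24 h and 6 at 120 h at the literature doses (15.4% and 53.2% of all tested genes did), and their median r was -0.08; Dag1 had 0.61. In the amino sugar list of Gnpda2, 11 genes were tested, 4 and 5 passed at those times against the same shares of all genes, the median r was -0.02, and the paralog Gnpda1 had -0.02. In the Wnt list beside Tcim, 15 genes were tested, 4 and 7 passed, again beside 15.4% and 53.2% of all, and the median r was -0.10.

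The cells were fibroblasts by their markers: all 10 fibroblast markers were above the array median on all 60 arrays. Of 11 macrophage markers, 7 were above it on no array at each time of each set. On all arrays 4 were above it at 24 h and 3 at 120 h in the first set, and 2 and 1 in the IC20 set. Summed macrophage intensity ran from 502 to 616 at 24 h and 512 to 677 at 120 h in the first set. Above it on no array of a time were 4 to 5 of 6 epithelial, 4 to 5 of 6 endothelial and 4 to 6 of 8 skeletal muscle markers. Fewer cells of a type and less RNA per cell cannot be told apart in such bulk samples. Of the interferon-stimulated list 14 genes were tested, with median r = 0.56 with Pde6b in the literature-dose arrays and 0.25 in the IC20 arrays. Their median deviation from the group mean was -0.10 on DMSO replicate 3 at 24 h, -0.15 on DMSO replicate 1 at 120 h and 0.28 on MCA replicate 3 at 24 h. Their part in the members' pattern was not tested.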

How the data were processed

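The deposited table holds intensity values on a linear scale for 45101 probe sets, as given by the authors. GCOS is named per the submitters' processing notes; background correction and summarization are not given in the sources used here. Each array's 2% trimmed mean was 153 to 188 in the literature-dose set and 500 in the IC20 set, so each set was treated alone. Probe sets with 1 gene symbol (34958) were named through the platform table and RefSeq, each set of 30 arrays was quantile normalized, log2(intensity + 16) was taken, and the probe set with the highest mean stood for a gene. Genes above the array median on at least 3 arrays were tested with limma 3.58.1 (group means, eBayes with trend, 20 residual degrees of freedom), after a test on simulated data. Named genes were the members, the 10 most and 5 least like Pde6b, the 3 measured neighbours on each side, and at most 4 genes a list; genes of the shared-array count were chosen after their values were seen. Members and lists were chosen with earlier results of these data known. Arrays of one number correlated in their deviations by 0.16 to 0.40 at 24 h in the IC20 set, over 0.1 in every pair, which pairs them there. At 120 h in that set the correlations were 0.06 to 0.53, with a mean of 0.31 against -0.16 between arrays of different numbers. In the literature-dose set the mean was 0.36 at 24 h, with pairs from -0.17 to 0.68, and 0.24 at 120 h. Between arrays of different numbers it was -0.18 and -0.12 there. The lowest pair of one number, -0.35, was at 120 h in the literature-dose set. The main treatment and time tests left the number out, and the replicate block put it in. For time, the block fit compares 120 h with 24 h at replicate number 1 alone. The number of arrays limits the precision.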

Additional observations from a re-analysis of the deposited data

How the results depend on the processing

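With deposited values and no quantile normalization, 802 genes passed the 24 h literature-dose treatment test (1946 as reported) and 1347 the 120 h literature-dose replicate-number test (3284). One fit of all 60 arrays gave 556 and 3901 for literature-dose treatment at 24 h and 120 h (1946 and 6719), 607 and 1812 for replicate number (2544 and 3284), and 2634 and 928 for IC20 treatment (975 and 322). In that fit Gnpda2 at 24 h (adjusted p = 0.185, limma; 0.0798 without normalization) and Sgcb at 120 h (0.0996) lost their literature-dose treatment calls. The replicate block raised treatment calls to 3786 at 24 h of the literature set, and to 3524 and 1886 in the IC20 set, and brought Sgcb at 24 h of the literature set to 0.0338. Leaving out 1 array at a time gave 1438 to 3511 genes for replicate number at 24 h of the literature set, with 1438 to 1492 on leaving out DMSO replicate 1 or 2, AAF replicate 2 or DAT replicate 2 at 24 h, and 0 to 1 pairs of members in the IC20 set; Spearman's rho gave 1 pair and the replicate block 0. A pseudocount of 1 took the literature-dose time call of Pde6b to 0.0928. No called direction reversed in the settings run. All alternatives for the genes most like Pde6b and for those highest on its arrays were chosen after seeing the data. The low Pde6b values lie at percentiles 0.8 to 13.9 of their arrays, where signal over background limits their order.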

Other observations

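Genes of mitosis, outside the members' pathways, fell with time in the DMSO controls: 17 of 17 tested genes of that list were lower at 120 h in both sets by limma, where 28.4% and 22.4% of all tested genes were, with median log2 differences of -2.25 at the literature doses and -1.74 in the IC20 set. Their median r with Pde6b apart from treatment was 0.30 and 0.04. Interferon-stimulated genes changed with time in opposite directions in the 2 sets: 8 of 14 were lower and 0 higher at 120 h in the first, and 10 were higher and 2 lower in the second, a difference that was not tested. Of all tested genes 29.3% were higher and 28.4% lower in the first, and 17.8% higher and 22.4% lower in the second. Of the same 14 genes, 13 passed the treatment test at each time of the literature doses, and 11 at 24 h and 9 at 120 h of the IC20 doses, beside 15.4% and 53.2%, then 7.72% and 2.55%, of all tested genes.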
